A study of Mus musculus with 8 samples.

Results

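The integrated stress response genes of the ATF4 and CHOP arm were followed in the brain of mice that had been fasted or fed for 17 h. The set held 10 genes, Atf4, Atf3, Atf5, Ddit3 (which encodes CHOP), Trib3, Ppp1r15a, Chac1, Sesn2, Eif4ebp1 and Asns, taken by gene name from the non-control probes of the arrays. They were read by 11 of 39429 probes, 2 for Atf4 and 1 for each of the other 9 genes. All 11 probes were well above background on all 8 arrays, so each entered the test, which covered 15184 genes. Each group had 4 arrays. The labels give the species, the tissue and the feeding state; the strain, sex and age of the mice, and how many mice gave each sample, are not given in the sources used here. The p-values therefore rest on the variation among these arrays, some of which may be technical.

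In the integrated stress response, any of 4 kinases phosphorylates the translation initiation factor eIF2, which lowers protein synthesis in general while raising translation of a few messages, that of the transcription factor ATF4 among them. ATF4 then switches on genes for amino acid supply, stress adaptation and feedback, and, when stress persists, the transcription factor CHOP. Because ATF4 is governed largely at translation, its messenger RNA is a partial readout of its activity. In brain the response is best known from memory formation, neurodegeneration and the sensing of amino acid shortage.

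ATF4 binds DNA as a heterodimer with C/EBP proteins at composite elements whose core reads TGATGNAA. The promoter stretches that hold this core, or the cAMP response element TGACGTCA bound by CREB and ATF factors, are shown to set the members' upstream letters beside their values: the composite core is in Atf3, which fell, and in Chac1, which rose, and the response element is in Ppp1r15a alone among the members. RefSeq windows of GRCm38.p6, running from 250 bases before to 50 bases after a transcript start, were present for 9 of the 10 genes, with a pair of windows for Atf5. The matched bases are in capitals and each stretch reads 5′ to 3′ on the gene's own strand, upstream of the start.
Atf3, composite core on the other strand: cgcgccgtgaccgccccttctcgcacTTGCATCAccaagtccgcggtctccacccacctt
Chac1, composite core on the other strand: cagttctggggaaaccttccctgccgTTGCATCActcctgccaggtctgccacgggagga
Asns, composite core as written: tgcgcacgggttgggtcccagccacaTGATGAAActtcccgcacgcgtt
Ppp1r15a, cAMP response element: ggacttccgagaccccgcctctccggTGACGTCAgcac
The Atf3 stretch lies at chr1:191183410-191183469, minus strand, and the Chac1 stretch at chr2:119351023-119351082, plus strand. The Asns stretch lies at chr6:7693210-7693258 and the Ppp1r15a stretch at chr7:45526269-45526306, both on the minus strand.

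Searched on both strands, TGATGNAA was present in 4 of the 9 genes, Atf3, Chac1, Trib3 and Asns, against 3.97% of all 32851 windows. Its first base in transcript direction was at position -110 in Atf3, -193 in Chac1 and -23 in Asns, counted from the transcript start, and the Trib3 match lay after the start, at positions 15 to 22. A form that differs at a single base, TGACGNAA, chosen after the windows had been read, was present in Atf3 and Chac1 and in 1.59% of all windows. The palindrome TGACGTCA was found in Ppp1r15a, at positions -12 to -5, and in 1.79% of all windows. The ER stress element was in none of the members' windows and in 0.119% of all. No matches of these motifs in the members overlapped. A match describes the letters of these windows only.

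Fasted brain had higher messenger RNA of the feedback and effector genes Chac1, Ppp1r15a, Sesn2 and Eif4ebp1, by 1.18-fold to 1.29-fold (n = 4 per group). The stress transcription factors Atf3 and Ddit3 were lower, by 1.76-fold and 1.19-fold. Atf4, Atf5, Trib3 and Asns did not pass the test. Thus 6 of 10 members were called with limma at an adjusted p under 0.05, 4 higher and 2 lower, where 18.6% of all genes tested were called, 9.48% higher and 9.11% lower. Fasted and fed values did not overlap for 7 members, compared with 27.2% of all genes. Fasted lay above fed for 5 of them (14.1% of all genes) and below for 2 (13.1%). The median log2 difference was 0.13 over the members and -0.01 over all genes tested, and the median absolute difference 0.24 and 0.09. The members were proposed with results of these arrays known, so these counts describe the set and are no independent evidence about it.

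**Figure D1:**
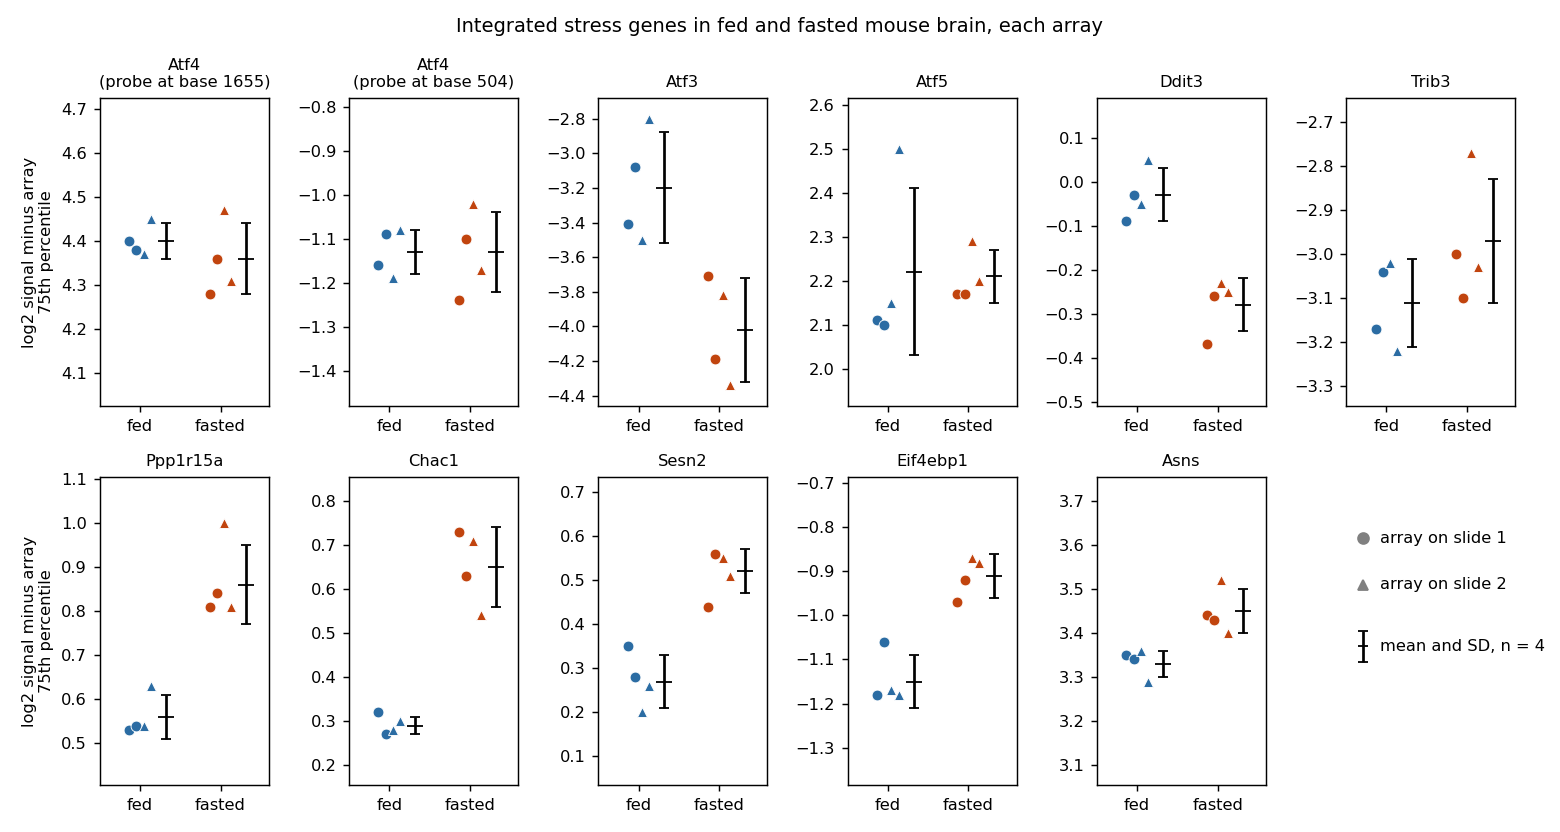
Scaled log2 signal (log2 processed signal minus the array's 75th percentile, so 0 is that percentile) of the 11 member probes on each fed and fasted array. Circles are arrays of slide 1, triangles arrays of slide 2, and black bars the mean and SD of 4 arrays. Every fasted point of Chac1, Ppp1r15a, Sesn2, Eif4ebp1 and Asns lies above every fed point, and every fasted point of Atf3 and Ddit3 below.

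Values are scaled log2 signals, the log2 of the processed signal minus the array's 75th percentile, given in the order of replicates 1 to 4. Because probes differ in brightness, levels are compared between arrays for one probe and never between genes.

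Among the transcription factors, Atf4, the central effector of the response, was read by a probe near the end of its transcript, starting at base 1655 of NM_009716 (chr15:80087902-80087961; probe positions are in mm9, to which the array design refers). It gave 4.28, 4.36, 4.47 and 4.31 in fasted brain and 4.40, 4.38, 4.37 and 4.45 in fed brain. The groups overlapped, with fasted replicate 3 the highest of all and fasted replicate 1 the lowest. The log2 difference was -0.05 ± 0.05 (SE; limma adjusted p = 0.522), and its 95% confidence interval ran from -10.1% to 4.21% of the fed level. The other Atf4 probe, starting at base 504 of the same transcript, gave -1.24, -1.10, -1.02 and -1.17 against -1.16, -1.09, -1.19 and -1.08. Its log2 difference rounded to 0.00 with an interval of -0.13 to 0.12 (adjusted p = 0.984). On both probes fasted replicate 3 was the highest array and fasted replicate 1 the lowest.

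Atf5, a relative of ATF4 whose translation is raised in the same way, was likewise not called. It measured 2.17, 2.17, 2.29 and 2.20 in fasted brain and 2.11, 2.10, 2.15 and 2.5 in fed brain. Fed replicate 4 stood above the other 7 arrays. The log2 difference was -0.01 ± 0.09 (SE; limma adjusted p = 0.951) with an interval of -0.22 to 0.20. Without fed replicate 4 it was 0.08 (adjusted p = 0.237).

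Atf3, a stress and activity-induced factor of the same bZIP family, had the largest difference among the members. Its values were -3.71, -4.19, -3.82 and -4.34 in fasted brain and -3.41, -3.08, -3.50 and -2.80 in fed brain. The lowest fed array was still above the highest fasted array, but the spread within each group (SD 0.30 and 0.32) was larger than for any other member. The log2 difference of -0.82 ± 0.19 (SE; limma adjusted p = 0.0249) corresponds to a level 1.76-fold lower in fasted brain, with a 95% confidence interval of 1.30 to 2.40. The difference was -0.71 on slide 1 and -0.93 on slide 2. The Atf3 probe read 89.0 to 256 intensity units, and the scanner software put the error of its spots at 12.4% to 21.0% of the signal. The call did not hold with the replicate block (adjusted p = 0.0786), when all probes were tested without a filter (0.0547), or without fasted replicate 2 (0.0651), fasted replicate 4 (0.0577), fed replicate 2 (0.0657) or fed replicate 4 (0.050, not under the threshold). With normexp background correction the difference was -0.51 (limma adjusted p = 0.0383). That setting adds an offset of 50 intensity units, which by itself makes log2 differences of a dim probe smaller.

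Ddit3, which encodes the pro-apoptotic factor CHOP, was lower by a small and even amount. It measured -0.37, -0.26, -0.23 and -0.25 in fasted brain and -0.09, -0.03, -0.05 and 0.05 in fed brain. Each of the 4 fasted arrays was below each of the fed arrays. The log2 difference was -0.25 ± 0.05 (SE; limma adjusted p = 0.0104), a level 1.19-fold lower with a 95% confidence interval of 1.11 to 1.28. It was -0.26 on slide 1 and -0.24 on slide 2. The probe spans 304 bases of the genome, chr10:126732518-126732821 of mm9, and so joins sequence that is not contiguous there.

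Feedback regulators came next. Ppp1r15a encodes GADD34, the inducible subunit that directs protein phosphatase 1 to eIF2 and so lets translation resume. Its values were 0.81, 0.84, 1.0 and 0.81 in fasted brain and 0.53, 0.54, 0.54 and 0.63 in fed brain. The groups were separate, and fasted replicate 3 and fed replicate 4 were each the highest of their group. The log2 difference of 0.30 ± 0.05 (SE; limma adjusted p = 0.00821) is a 1.23-fold rise (95% confidence interval 1.14 to 1.34), with 0.29 on slide 1 and 0.32 on slide 2. Ppp1r15b, its constitutive counterpart, gave -0.03 ± 0.09 (adjusted p = 0.832). Whether both differ from each other was not tested.

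Trib3, a pseudokinase that restrains ATF4, CHOP and AKT, was not called. It gave -3.00, -3.10, -2.77 and -3.03 in fasted brain and -3.17, -3.04, -3.02 and -3.22 in fed brain. Only fasted replicates 1 and 3 lay above every fed array. The log2 difference was 0.14 ± 0.08 (SE; limma adjusted p = 0.278), with an interval of -0.05 to 0.32 that also holds the differences found for Sesn2 and Eif4ebp1.

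Of the effectors, Chac1, which degrades glutathione and is among the most responsive ATF4 targets, had the largest rise of the set. It measured 0.73, 0.63, 0.71 and 0.54 in fasted brain and 0.32, 0.27, 0.28 and 0.30 in fed brain. Fed arrays lay within 0.05 of each other, and the lowest fasted array exceeded all of them. The log2 difference of 0.36 ± 0.05 (SE; limma adjusted p = 0.00327) is a 1.29-fold rise, with a 95% confidence interval of 1.19 to 1.39. The slides gave 0.39 and 0.33. Its probe lies at chr2:119179990-119180049 of mm9.

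Sesn2, a leucine-binding inhibitor of mTORC1, gave 0.44, 0.56, 0.55 and 0.51 in fasted brain and 0.35, 0.28, 0.20 and 0.26 in fed brain. The groups were separate, closest between fasted replicate 1 and fed replicate 1. Its log2 difference was 0.24 ± 0.04 (SE; limma adjusted p = 0.0105), a 1.18-fold rise with a 95% confidence interval of 1.1 to 1.27. It was 0.18 on slide 1 and 0.30 on slide 2. With normexp background correction the difference was 0.22 and did not pass (adjusted p = 0.0657; 0.00328 to 0.0657 over 19 alternatives other than single slides).

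Eif4ebp1 encodes 4E-BP1, which binds the cap-binding protein eIF4E and blocks translation until mTORC1 phosphorylates it. It measured -0.97, -0.92, -0.87 and -0.88 in fasted brain and -1.18, -1.06, -1.17 and -1.18 in fed brain. All fasted arrays were higher, and fed replicate 2 stood above the other fed arrays. The log2 difference was 0.24 ± 0.04 (SE; limma adjusted p = 0.00874), a 1.18-fold rise with a 95% confidence interval of 1.1 to 1.26. As for Sesn2, slide 1 gave 0.18 and slide 2 gave 0.30.

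Asns, asparagine synthetase, is a classical target of amino acid shortage. It gave 3.44, 3.43, 3.52 and 3.40 in fasted brain and 3.35, 3.34, 3.36 and 3.29 in fed brain. Its groups did not overlap, yet the difference was small, 0.12 ± 0.04 on the log2 scale (SE), and limma's adjusted p was 0.0656. Of 19 alternatives other than single slides it passed in 1, eBayes with trend and robust (adjusted p = 0.0314).

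**Figure D2:**
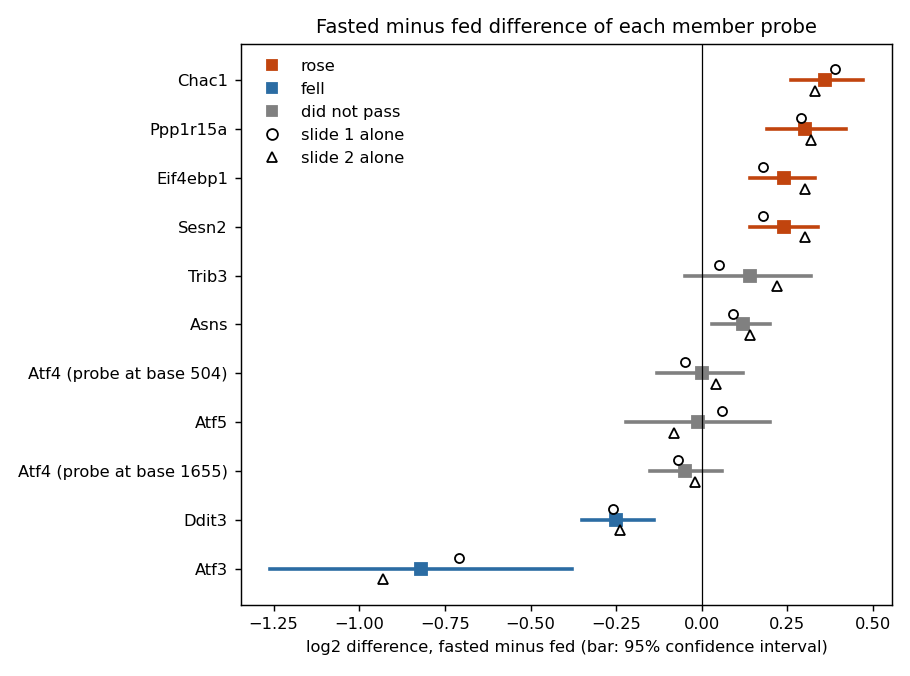
Log2 difference, fasted minus fed, of each member probe (squares) with its 95% confidence interval (bars), and the difference within slide 1 (circles) and slide 2 (triangles), each with 2 arrays per group. Each of the 6 called genes has the same direction on both slides, as groups that do not overlap must. Atf5 and the Atf4 probe at base 504 lie on different sides of 0 on the slides.

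Each slide held 2 fasted and 2 fed arrays. The 6 called members had the same direction on both slides, which follows from their groups not overlapping and is no separate check. Within a slide, limma called 0 genes in all. Unadjusted p was under 0.05 for 5 members on slide 1 and for 6 on slide 2, as for 3517 and 2352 of all genes. Between slides no member passed the test (limma adjusted p of at least 0.475). Position on the slide alternated with feeding state, fasted at 1 and 3 and fed at 2 and 4, and the 2 cannot be told apart.

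Genes around the response came from 13 lists, with 180 genes other than the members tested. Upstream, 2 of 12 genes for eIF2 kinases and their regulators rose and 0 fell (median log2 difference 0.03). That is 16.7% called, beside 18.6% of all genes. Eif2ak2, the kinase PKR that senses double-stranded RNA, rose by 0.29 ± 0.06 (SE; limma adjusted p = 0.0126); the value was 0.10 with normexp background correction, where it did not pass (adjusted p = 0.295). Eif2ak3, which encodes PERK, the kinase of the endoplasmic reticulum, rose by 0.13 ± 0.03 (adjusted p = 0.0319). That call did not hold with the replicate block (adjusted p = 0.0522), median scaling (0.0665), normexp (0.13) or no filter (0.0862), and held in 1 of 8 fits that left out an array, the one without fasted replicate 3; the others gave up to 0.0785. Eif2ak4, the amino acid sensor GCN2, gave 0.07 (adjusted p = 0.257), its activator Gcn1l1 0.08 (0.185), the haem-regulated kinase Eif2ak1 0.04 (0.536) and the adaptor Nck1 -0.11 (0.0827).

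Among subunits of eIF2 and eIF2B and their partners, 2 of 10 rose and 0 fell, with a median of 0.08. That is 20% called, again near the 18.6% of all genes. Eif5, the GTPase-activating protein of eIF2, rose by 0.32 ± 0.04 (SE; limma adjusted p = 0.00286), and its other probe by 0.17 (adjusted p = 0.0187). Eif2s2, the beta subunit of eIF2, rose by 0.16 (adjusted p = 0.0144; 0.0886 with normexp), with 0.10 on another probe that did not pass (0.397). Eif2s3x gave 0.11 (0.091) on its brighter probe and 0.35 (0.0263) on another, and Eif2b4 gave 0.15 (0.108). Probes also disagreed for genes picked out here after their values were seen. Eif2s1, the subunit that the kinases phosphorylate, gave -0.05 (0.537) on its brightest probe and 0.24 (0.0158) on the other, and Eif2b3 gave 0.11 (0.208) and 0.23 (0.0185). Impact, an inhibitor of GCN2 signalling in the kinase list, gave -0.03 (0.545) and 0.43 (0.0147).

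Other ATF4 targets did not move one way. Of 9 tested genes of amino acid synthesis and one-carbon metabolism, 2 rose and 1 fell. Cbs, which starts the transsulfuration of homocysteine, rose by 0.55 ± 0.06 (SE; limma adjusted p = 0.00254). Psat1 and Phgdh, neighbouring enzymes of serine synthesis, went opposite ways: Psat1 rose by 0.33 (adjusted p = 0.00448; 0.20 on another probe), whereas Phgdh fell by 0.27 (adjusted p = 0.00615) and gave -0.25 on another probe (0.00749). Aldh18a1, of proline synthesis, gave -0.11 (0.135). Of 10 amino acid transporters 1 rose and 1 fell. The arginine and lysine transporter Slc7a1 rose by 0.29 (adjusted p = 0.00343), and the cystine transporter Slc7a11 fell by 0.54 (adjusted p = 0.00406). Slc7a5, a leucine transporter, gave 0.18 (0.0901) on its brighter probe and 0.37 (0.0137) on the other, and Slc38a7 gave 0.08 (0.157).

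Aminoacyl tRNA synthetases, a further group of ATF4 targets, had positive differences in 15 of 18 genes and a median of 0.09, but 2 rose by the test. These were Hars, by 0.20 (limma adjusted p = 0.00696), and Rars, by 0.28 (adjusted p = 0.0211; 0.0662 with the replicate block, 0.178 with normexp, 0.0516 with no filter and 0.0504 without fed replicate 4). Nars gave 0.09 (0.0785) and Qars 0.14 (0.0841). Of 17 tested other stress-induced targets of ATF4 and CHOP, 0 rose and 1 fell. That was Vegfa, the endothelial growth factor, by 0.27 (adjusted p = 0.00544), while its other probe gave 0.05 (0.603). Vldlr gave 0.10 (0.0938), Cebpg, a dimer partner of ATF4, 0.08 (0.0979) and the oxidoreductase Ero1lb -0.11 (0.0664). The other Vldlr probe gave -0.13 (0.518). Of 6 further genes of this list without a kept probe, Fgf21, Gdf15 and Stc2 encode secreted factors. In these lists the shares called, 33.3%, 20%, 11.1% and 5.88% in the order given, lay on both sides of the 18.6% of all genes.

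Of 19 genes of the other branches of the unfolded protein response, 12 fell, 0 rose and 7 did not pass, 3 of the 19 having positive differences. The share that fell in all genes was 9.11%. The list's median was -0.26 (-0.24 on each slide). With median scaling or no filter 8 passed, as without fasted replicate 1 or 2. Sdf2l1, a cofactor of endoplasmic reticulum chaperones, fell by 0.76 ± 0.07 (SE; limma adjusted p = 0.00133), Creld2 by 0.47 (adjusted p = 0.00104), Manf, a secreted protein of that compartment, by 0.38 (adjusted p = 0.00344) and Calr, the chaperone calreticulin, by 0.38 (adjusted p = 0.00152). Dnajb9, a co-chaperone named after its values were seen, gave 0.08 (0.235) on its brightest probe and 0.57 (0.0367) on the other. The fall of chaperones was already known when the lists were written.

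**Figure D3:**
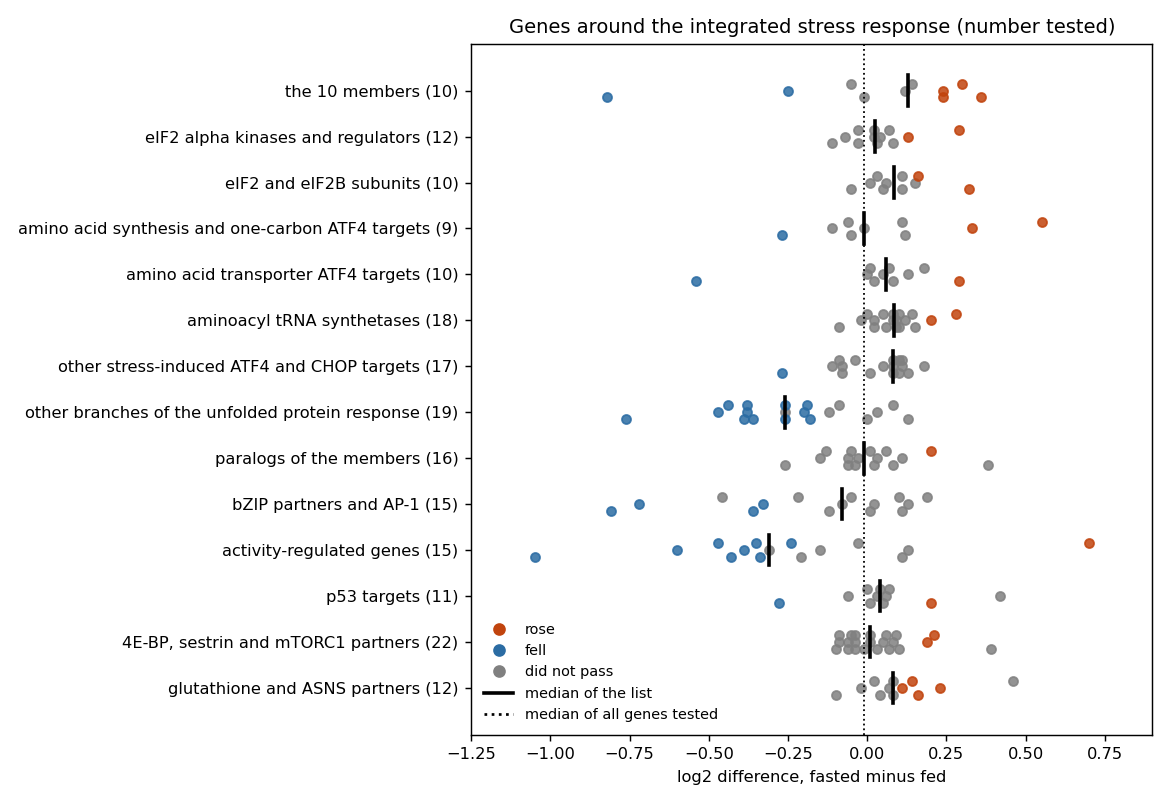
Log2 difference, fasted minus fed, of every tested gene of the 13 lists and of the 10 members; coloured points passed limma's test, black bars are list medians and the dotted line is the median of all genes tested, -0.01. The unfolded protein response list (median -0.26) and the activity-regulated list (median -0.31) lie to the left, and the member set (median 0.13) to the right.

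Paralogs of the members were counted as a single list. Of 16 tested, 1 rose and 0 fell, 6.25% called beside 18.6% of all genes. Sesn1, the sestrin best known as a p53 and FOXO target, rose by 0.20 ± 0.04 (SE; limma adjusted p = 0.01). Cebpd gave 0.38 (0.0637), which passed with the replicate block (adjusted p = 0.0272), and Trib1 -0.26 (0.0887). Partners in mTORC1 signalling gave 2 rises among 22, Mios by 0.21 (adjusted p = 0.0187; not past the threshold without fasted replicates 1, 2 or 4 in turn, up to 0.0539, or with normexp, 0.0876) and Eif4e2 by 0.19 (adjusted p = 0.0259; up to 0.0699 without fasted replicate 1 or fed replicates 2, 3 or 4, 0.0863 with normexp and 0.0656 with no filter). The 2 rises were 9.09% of the list, where 9.48% of all genes rose. Castor1, an arginine sensor, gave 0.39 and did not pass (limma adjusted p = 0.094). It passed with the replicate block (0.0299), gave 0.13 with normexp (0.390), and passed in 0 of 8 fits that left out an array. Depdc5 gave -0.10 (0.0763) on its brightest probe, and 0.17 (0.115), -0.27 (0.163) and -0.34 (0.0948) on others.

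Genes of glutathione and asparagine metabolism, the pathways of Chac1 and Asns, gave 4 rises among 12 and 0 falls. The share called was 33.3%, beside 18.6% of all genes. Glul, glutamine synthetase, rose by 0.23 (limma adjusted p = 0.0176). Gclc, the rate-limiting enzyme of glutathione synthesis, rose by 0.11 (0.0332), Got1, which makes aspartate, by 0.14 (0.0365) and glutathione reductase Gsr by 0.16 (0.0394). Another Gsr probe gave 0.13 and did not pass (0.179). With the replicate block Gclc, Got1 and Gsr did not pass (limma adjusted p = 0.0657, 0.0514 and 0.0911), nor with no filter (0.094, 0.0923 and 0.0918). Got1 and Gsr also did not pass with median scaling (0.0559 and 0.0515), nor Gclc and Gsr with normexp (0.0636 and 0.0731). Gclc did not pass with quantile normalization either. In the order Gclc, Got1 and Gsr, they passed in 1, 1 and 2 of 8 fits that left out an array. Gclc passed without fasted replicate 3, Got1 without fasted replicate 4, and Gsr without fasted replicates 3 or 4. Of 11 p53 targets 1 rose, Sesn1, and 1 fell, Gadd45a, by 0.28 (adjusted p = 0.0279; up to 0.0743 when fasted replicates 1, 2 or 3 or fed replicates 1, 2 or 4 were left out, and 0.0643 with no filter). Cdkn1a gave 0.42 (0.126) and Bax 0.07 (0.445). The share of p53 targets called, 18.2%, was near the 18.6% of all genes.

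Atf3 also belongs to the genes that neurons induce with activity, and those were measured beside it. Of 15 activity-regulated genes 8 fell and 1 rose, with a median of -0.31, and of 15 bZIP and AP-1 partners 4 fell and 0 rose. Among all genes tested, 9.11% fell and 9.48% rose. The share of bZIP and AP-1 partners called was 26.7%, beside 18.6% of all genes. Fosb fell by 0.81 ± 0.09 (SE; limma adjusted p = 0.00186) and Fosl2 by 0.72 (adjusted p = 0.00974), next to 0.82 for Atf3. Batf3 fell by 0.36 (adjusted p = 0.0034), Crebzf by 0.33 (0.0375), Egr4 by 0.47 (0.00879), Nr4a2 by 0.35 (0.00169) and Per1 by 0.34 (0.00997). Crebzf passed in 2 of 8 fits that left out an array, those without fasted replicate 2 or 3, and the others gave up to 0.0858. With no filter its adjusted p was 0.0803. Other probes of Crebzf gave -0.22 (0.133) and -0.23 (0.0734), and another of Nr4a2 gave -0.36 (0.0536), none past the threshold. Btg2, an antiproliferative gene, rose by 0.70 (limma adjusted p = 0.014), unevenly between slides, with 0.38 on slide 1 and 1.02 on slide 2. The part of these genes' change in that of Atf3 was not tested.

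Markers of brain cell types were present on all 8 arrays, among them Rbfox3 of neurons, Aqp4 of astrocytes, Mbp of oligodendrocytes and Tmem119 of microglia. Of all genes tested 9.48% rose and 9.11% fell, so a single call within such short marker lists says little. Neuronal markers gave 0 rises and 0 falls among 6. Of 5 microglia markers 4 fell, and their summed level, in units of the array's 75th percentile, was 16.0 to 18.3 in fasted and 19.1 to 20.8 in fed brain. Of 5 oligodendrocyte markers 3 fell, with sums of 79.2 to 83.9 and 88.5 to 95.6. Of 5 astrocyte markers 1 fell, Aqp4, by 0.41 (limma adjusted p = 0.00603). The others did not pass, with 0.06 for Gfap, 0.13 for Aldh1l1, 0.12 for Slc1a3 and -0.11 for Gja1. The astrocyte median was 0.06, with sums of 19.7 to 20.9 in fasted and 19.5 to 19.7 in fed brain. Of 2 oligodendrocyte precursor markers 1 rose, Pdgfra, by 0.25 (adjusted p = 0.00456), while Cspg4 gave -0.01 (0.942). Of 4 endothelial markers 1 rose, Slco1a4, by 0.50 (limma adjusted p = 9.67e-04). Cldn5 gave 0.14 (0.138), Pecam1 -0.16 (0.310) and Flt1 -0.18 (0.114). The endothelial sums overlapped, 8.21 to 9.07 in fasted and 8.54 to 9.01 in fed brain. Of 3 meningeal and pericyte markers 1 rose, Pdgfrb, by 0.18 (0.0317), while Col1a1 gave 0.05 (0.861) and Dcn -0.02 (0.748). Of 3 ependymal markers 1 fell, Ccdc153, by 0.16 (0.0333), while Foxj1 gave -0.13 (0.183) and Rsph1 0.02 (0.779). Of 3 tested genes listed for blood 1 fell, Ptprc, by 0.65 (limma adjusted p = 0.00151), while Hba-a1 gave -0.21 (0.486) and Alas2 -0.12 (0.715). Their sums overlapped, 20.2 to 32.8 in fasted and 21.7 to 36.2 in fed brain. Choroid plexus markers gave 0 calls among 4, with -0.05 (0.592) for Ttr. Markers other than the first of each type are named after their values were seen. Of the defining markers of tissues outside the brain, Gh of pituitary was well above background on 2 arrays, Alb of liver on 6 (0.91; adjusted p = 0.43) and Acta1 of muscle on 8 (-0.07; 0.225). The part of these cell types in the changes of the members was not tested. In bulk brain RNA, fewer cells of a type and less RNA per cell cannot be told apart.

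**Figure D4:**
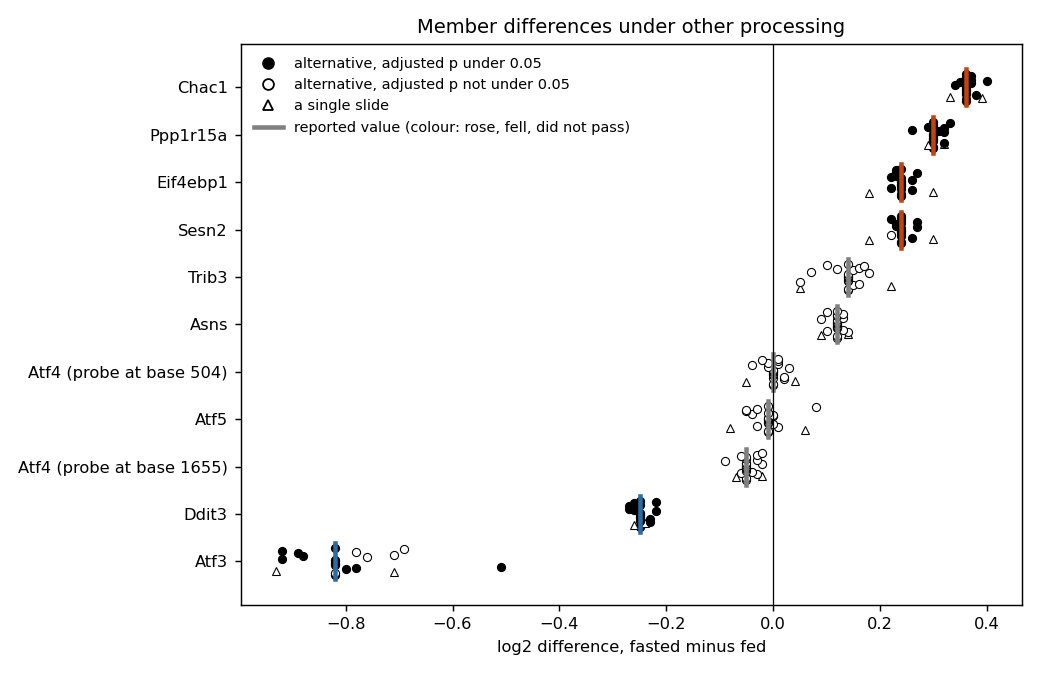
Log2 difference, fasted minus fed, of each member probe under every alternative processing (points; filled where the adjusted p is under 0.05, triangles for a single slide) against the reported value (coloured bars). Atf3 is spread from -0.93 to -0.51, while the points of Chac1 stay between 0.33 and 0.40.

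Under 19 alternatives other than single slides, 107 of the 114 values of the 6 called members passed the threshold. The 7 that did not were 6 of Atf3 and 1 of Sesn2. Chac1, Ppp1r15a, Eif4ebp1 and Ddit3 passed in each, with adjusted p of up to 0.0171, 0.0278, 0.0295 and 0.0311. All 126 values, the single slides included, kept the direction reported above. Fasted and fed arrays did not overlap for any called member, so fits on fewer arrays, single slides among them, had to keep it. These counts also include alternatives that could not change a called member's log2 difference. The blocks, no filter and the trend and robust moderation left that difference as it was. The series table holds the same signal over a factor constant per probe. No member spot was outlier-marked, and each called member had 1 probe to average. Requiring signal well above background on every array kept all called members with their differences unchanged. Such near-copies of the main fit add little to the counts as checks.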

How the data were processed

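Brain RNA of 4 fasted and 4 fed samples was read on single-colour Agilent arrays and grouped by sample title. Spot brightness in the authors' deposited scanner output is an intensity, background-subtracted and detrended by Feature Extraction 11.0.1.1 per the file headers, whereas the submitters' processing notes name 10.10.1.1. A deposited table of the whole series, used as an alternative, has a linear ratio for each spot. It equals the signal over the array's 75th percentile and over a factor constant per probe (spread 1.79e-04 on the log2 scale; column medians 0.970 to 1.02), whose baseline is unknown.

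The log2 of each processed signal minus that of the array's 75th percentile (1651 to 1944 intensity units) was used. Control spots and outlier-marked spots (128 to 217 per array, none of a member) were dropped and the spots of a probe averaged. Probes well above background on at least 4 of 8 arrays, whatever the group, were kept, 26066 of 39429. Between 62.3% and 69.0% of probes reached that level on a given array, and no spot was saturated. RefSeq genes of GRCm38.p6, matched by 27427 probes, gave names and promoter windows. Exons and untranslated regions under the probes were not analysed here. A gene took its brightest kept probe. The test was two-sided, lmFit and eBayes of limma 3.58.1 (R 4.3.3), with Benjamini-Hochberg adjustment over all kept probes and a threshold of 0.05.

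Fasted and fed arrays of one replicate number lie on the same slide, and their deviations from the group means correlated at 0.18 to 0.29, so the replicate number was run as a block. Other pairs on a slide correlated at 0.05 to 0.27, and pairing and slide cannot be told apart. Alternatives changed the block, scaling, background, filter, moderation, probe choice and arrays used. The normexp setting added an offset of 50 intensity units, which shrinks log2 differences of dim probes. Its share in the normexp values was not tested. Genes named beside the members are up to 4 of each list with the smallest p, the eIF2 kinases, Ppp1r15b and the first marker of a cell type. Members and lists were chosen with earlier results of these data known.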

Additional observations from a re-analysis of the deposited data

Results flagged for a closer look

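Among 128 groups of 4 arrays checked (64 probes of members and named genes), 9 had an array standing apart from the other 3 by Dixon's criterion; chance flags about 1 in 20 groups. For the members, Atf5 was 2.5 in fed replicate 4 against 2.10 to 2.15 in the other fed arrays, and Eif4ebp1 was -1.06 in fed replicate 2 against -1.18 to -1.17. Of the kinases, Eif2ak1 was -1.21 in fed replicate 3 (others -1.28) and Eif2ak3 was -0.45 in fasted replicate 3 (others -0.54 to -0.53). Nars was 1.92 in fed replicate 2 (1.84 to 1.85) and Rars -2.93 in fasted replicate 4 (-3.17 to -3.14). Vldlr was 2.17 in fed replicate 3 (2.16), Batf3 -2.62 in fasted replicate 2 (-2.76 to -2.74) and Crebzf 1.42 in fasted replicate 3 (1.77 to 1.84).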

How the results depend on the processing

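The number of arrays limits every value. With the replicate block 5 of 10 members were called in place of 6, with Atf3 lost, and this paired analysis changed no other call among the members. On slide 1 by itself, and likewise on slide 2, 0 members and 0 list genes were called, where the whole comparison called 6 and 45. Unadjusted p was under 0.05 for 5 and 6 members, and 0 genes were called in all, 0 higher and 0 lower. Leaving out one array gave 5 to 6 called members, 33 to 42 called list genes and 1774 to 2417 called genes in all, against 2823. Over all genes the count was 1642 with no filter (838 higher and 804 lower) and 1823 with normexp (904 and 919). With median scaling 914 genes were lower in place of 1383. Among members not called, 1 of 104 alternative values passed, that of Asns with trend and robust moderation. The cause was not tested.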
